A study of Arabidopsis thaliana with 72 samples.

Results

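HHO1 (AT3G25790), HHO2 (AT1G68670), HHO3 (AT1G25550) and NRG2 (AT3G60320) are 4 genes of Arabidopsis thaliana that act in the control of nitrate responses. They were chosen by name for that role, with earlier results of these data known. Each was read by 1 probe set of its own on the Affymetrix ATH1 array, out of 22746 probe sets and 13350 genes paired with a probe set of their own. Transcript levels were measured on 72 arrays, which hold shoots and roots of 6 lines at 2 nitrate supplies with 3 replicates in each of the 24 groups. A replicate is a pool of 30 plants taken from 3 plates, so the spread between replicates is that between pools of plants. Of the lines, El-0 and Fei-0 are natural accessions and the other 4 are recombinant inbred lines, each a single inbred genotype: KB006 from Kondara x Br-0, NG064 and NG087 from Nok-3 x Ga-0, and SG063 from Sorbo x Gy-0. All plants were 21 days old and came from vertical agar plates with 1% sucrose under 16 h of light. The sufficient medium held 9 mM nitrate (5 mM as KNO3, the rest from Ca(NO3)2 at 2 mM), and the low medium held 0.4 mM nitrate (0.2 mM Ca(NO3)2 with 5 mM KCl). The labels name no mutant allele or transgene in any line.

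HHO1, HHO2 and HHO3 belong to the NIGT1/HHO family of GARP-type transcription factors, which are repressors of transcription. In Arabidopsis their genes are switched on by nitrate, and the proteins repress genes for high-affinity nitrate uptake, among them NRT2.5, as well as genes of their own family, so that they act as a brake on the nitrate response and tie it to phosphate supply. NRG2 is a protein of the DUF630/DUF632 family that acts as a positive regulator of nitrate signalling in Arabidopsis, upstream of the nitrate transceptor gene NRT1.1 and together with the transcription factor NLP7.

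Values are given on the log2 scale of the deposited table, on which 1 unit is a 2-fold difference and the lowest value is 2.11. A level on this scale was compared between samples within a gene and never between genes. A response is the level at low minus the level at sufficient nitrate, given ± SE from the limma fit, and a gene was called when its p-value, adjusted by Benjamini-Hochberg over all 22746 probe sets, was below 0.05. The median of an array lay between 5.72 and 6.04. In total 68 of the 72 arrays correlated best with the other arrays of their labelled organ and supply. The other 4 were the arrays of Fei-0 replicate 3 in both organs at both supplies, each of which matched another condition better. The array labelled shoot, sufficient nitrate correlated with root, low nitrate arrays (r = 0.988) more than with its own condition (0.789), and the one labelled root, sufficient nitrate with shoot, low nitrate arrays (0.987 against 0.859). The array labelled shoot, low nitrate was closer to shoots at sufficient nitrate (0.984 against 0.962), and the one labelled root, low nitrate to roots at sufficient nitrate (0.987 against 0.977). The labels were kept, and the responses of the 4 genes are given with all arrays as labelled and without these 4 arrays. Values described by range below leave these 4 out, as 17 arrays per organ and supply, and the 4 themselves are given with each gene. The 6 shoot marker genes averaged 12.2 to 13.8 in shoots and 3.39 to 8.99 in roots, and the 4 measured of 8 root marker genes averaged 9.65 to 11.9 in roots and 6.85 to 8.79 in shoots, so the organs separated on the averages of both lists. The root marker JAL22 by itself overlapped between organs, at 7.65 to 13.2 in roots and 8.30 to 10.5 in shoots. In roots the shoot markers stood lower at low nitrate (averages of 3.39 to 6.00 over 17 arrays) than at sufficient nitrate (7.13 to 8.99), and in shoots they stood at 12.2 to 13.3 and 13.4 to 13.8. As labelled, 6 of 6 shoot markers and 2 of 4 root markers fell in roots (15.5% of all probe sets fell). In shoots 0 of either list were called (17.3% of all probe sets fell). Without the 4 arrays, 6 of 6 shoot markers and 4 of 4 root markers fell in roots (medians of -3.50 and -0.70, with 19.1% of all probe sets falling). In shoots 6 of 6 and 3 of 4 then fell (medians of -0.70 and -0.34, with 21.9% of all probe sets falling). The part of these shifts in the responses of the 4 genes was not tested. In whole organs, fewer cells that express a gene and less RNA per cell cannot be told apart.

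**Figure D1:**
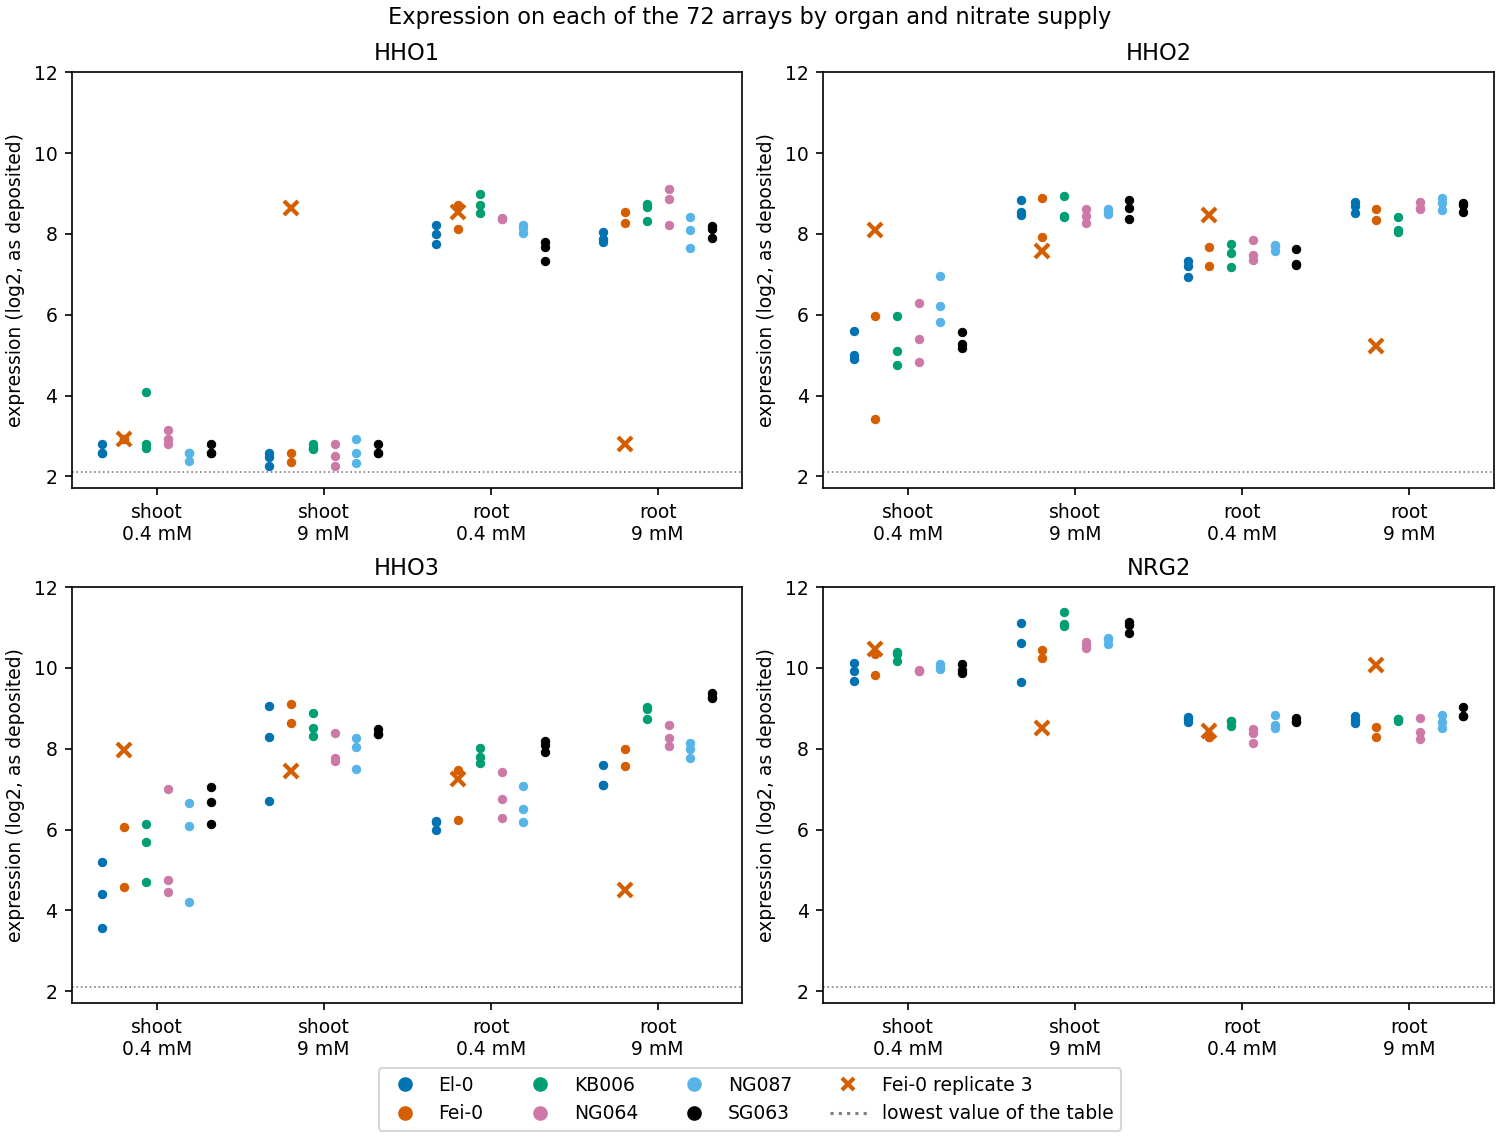
Expression (vertical axis, log2 scale as deposited) of the 4 genes on each of the 72 arrays, by organ and nitrate supply (horizontal axis); each point is 1 array, colours mark the lines, crosses mark Fei-0 replicate 3 and the dotted line marks the lowest value of the table, 2.11. HHO2 and HHO3 are lowest in shoots at 0.4 mM, HHO1 lies at 4.09 or lower in every shoot array but the Fei-0 replicate 3 array labelled sufficient, and NRG2 is higher in shoots than in roots apart from crosses.

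HHO2 showed the largest response to nitrate of the 4 in shoots, while in roots that of HHO3 was larger by less than its SE. In shoots its level ranged from 3.41 to 6.96 (median 5.39) at low nitrate and from 7.91 to 8.94 (median 8.52) at sufficient nitrate (17 arrays each). Every low nitrate array lay below every sufficient nitrate array, which was so for 2.2% of all probe sets. As labelled, the ranges overlapped, because the Fei-0 replicate 3 array labelled low read 8.10 and the one labelled sufficient 7.57. HHO2 fell in shoots by a mean of 2.92 ± 0.26 over the 6 lines, a 7.55-fold difference (95% confidence interval of the log2 response -3.46 to -2.37, adjusted p = 6.75e-09, limma). With the 4 arrays left out it was -3.15 ± 0.19 (adjusted p = 4.82e-12), an 8.89-fold difference. The mean response was called for 41% of all probe sets as labelled and for 49.9% without the 4 arrays. HHO2, HHO3 and NRG2, 3 of the 4 genes, fell in shoots, where 17.3% of probe sets fell and 23.7% rose (21.9% and 28% without the 4 arrays). The HHO2 response was the 60th largest fall of the 22746 as labelled and the 67th without the 4 arrays.

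Line by line, HHO2 read 4.90, 5.01 and 5.59 in El-0 shoots at low nitrate and 8.48, 8.85 and 8.55 at sufficient nitrate. KB006 shoots gave 4.76, 5.97 and 5.09 for HHO2 at low and 8.94, 8.45 and 8.42 at sufficient nitrate. SG063 shoots gave 5.56, 5.28 and 5.18 and 8.83, 8.36 and 8.65. The ranges of these 3 lines overlapped at either supply. NG064 shoots gave HHO2 values of 5.39, 6.30 and 4.82 at low and 8.27, 8.45 and 8.62 at sufficient nitrate. In NG087, of the same cross, HHO2 stood at 6.21, 6.96 and 5.81 at low nitrate and 8.52, 8.48 and 8.61 at sufficient nitrate. In Fei-0 the values of HHO2 were 3.41, 5.98 and 8.10 at low and 8.88, 7.91 and 7.57 at sufficient nitrate, in the order of replicates 1 to 3. NG087 had the highest low nitrate mean of HHO2 (6.33 ± 0.58, SD, n = 3), and Fei-0 the widest spread as labelled. All low values lay below all sufficient values in each of the 5 lines other than Fei-0, which held for 5.83% of probe sets. Within lines the HHO2 response was called in 5 of 6 as labelled, from -2.21 ± 0.64 in NG087 (adjusted p = 0.0294) to -3.46 ± 0.64 in El-0 (0.00132), while Fei-0 gave -2.29 ± 0.64 (0.228). As labelled, the share of all probe sets called as lower in shoots was 4.78% in El-0, 0.0308% in Fei-0, 4.35% in KB006, 4.81% in NG064, 3.76% in NG087 and 4.71% in SG063. For HHO2 all 6 lines were called without the 4 arrays, and Fei-0 gave -3.70 ± 0.56 (adjusted p = 0.00011). The shares of probe sets lower were then 11.1% in El-0, 7.25% in Fei-0, 10.4% in KB006 and NG064, 9.55% in NG087 and 10.6% in SG063. The NG087 call as labelled did not hold when NG087 low replicate 1 (adjusted p = 0.0871) or 3 (0.111) or sufficient replicate 1 (0.0763), 2 (0.0563) or 3 (0.0757) was left out.

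In roots HHO2 responded in the same direction with a smaller size. Its root level ranged from 6.94 to 7.85 (median 7.48) at low and from 8.04 to 8.89 (median 8.63) at sufficient nitrate. Again no low value reached a sufficient value, against 1.37% of probe sets. The Fei-0 replicate 3 arrays read 8.47 where labelled low and 5.23 where labelled sufficient. HHO2 fell in roots by 0.89 ± 0.20 (adjusted p = 0.000766, limma), and by 1.13 ± 0.07 (2.58e-12), a 2.18-fold difference, without the 4 arrays. In roots 2 of the 4 genes fell, HHO2 and HHO3. The mean root response was called for 36.6% of probe sets, of which 15.5% of all fell and 21.2% rose, and without the 4 arrays for 42.8%, with 19.1% falling and 23.6% rising.

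Among the lines, El-0 roots had the lowest mean HHO2 level at low nitrate, with values of 6.94, 7.32 and 7.21, against 8.52, 8.78 and 8.68 at sufficient nitrate. Of the 5 lines other than Fei-0, KB006 roots had the lowest mean at sufficient nitrate, with 7.75, 7.19 and 7.54 at low and 8.42, 8.04 and 8.09 at sufficient supply. NG064 roots gave 7.85, 7.35 and 7.48 and 8.62, 8.63 and 8.80 for HHO2. At sufficient nitrate the KB006 range lay below those of El-0 and NG064 without overlap. NG087 roots gave 7.69, 7.73 and 7.58 at low and 8.89, 8.59 and 8.77 at sufficient nitrate. SG063 roots gave HHO2 values of 7.64, 7.26 and 7.23 and 8.78, 8.55 and 8.71. In Fei-0 roots replicates 1 and 2 read 7.19 and 7.68 at low and 8.63 and 8.35 at sufficient nitrate. Low and sufficient values did not overlap in any of the 5 lines other than Fei-0, as for 4.6% of probe sets. As labelled 0 of 6 lines were called for HHO2 in roots, where 2.31% of probe sets were lower in El-0, 3.56% in Fei-0, 7.49% in KB006, 6.8% in NG064, 4.45% in NG087 and 5.89% in SG063. Leaving out the 4 arrays, 6 of 6 were called, from -0.69 ± 0.16 in KB006 (adjusted p = 0.00198) to -1.50 ± 0.16 in El-0 (5.26e-07). El-0 was also called with only Fei-0 sufficient replicate 1 (0.0322), 2 (0.0471) or 3 (4.97e-05) left out and under the filter at a mean of 5 (0.0485), and SG063 without replicate 1 (0.0421) or 3 (0.000104) of that group. Without replicate 3 of that group KB006 (0.017), NG064 (0.000374) and NG087 (0.000765) were called as well. All groups of an organ share a common estimate of the spread in this fit. With the 4 arrays left out, the shares of probe sets lower were 6.93% in El-0, 4.83% in Fei-0, 11.7% in KB006, 11.6% in NG064, 8.29% in NG087 and 10.5% in SG063. The lines also differed without the 4 arrays in the root level of HHO2 at sufficient nitrate (limma F test, adjusted p = 0.0392, 47.5% of probe sets), with KB006 lower by 0.47 than the mean of the other 5 lines (SE 0.12, 0.0096, 8.37% of probe sets lower), but not at low nitrate (0.143). As labelled neither F test was called (0.14 and 1), while Fei-0 at sufficient nitrate was called as lower (-1.19 ± 0.38, 0.0223), which did not hold without the 4 arrays (-0.10 ± 0.15, 0.879).

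HHO3 fell at low nitrate in both organs as well. In shoots it ranged from 3.56 to 7.06 (median 5.69) at low and from 6.71 to 9.09 (median 8.37) at sufficient nitrate. The ranges overlapped between 6.71 and 7.06, where the lowest sufficient value was El-0 replicate 1 and the highest low values were SG063 replicate 2 and NG064 replicate 2. Fei-0 replicate 3 read 7.98 for HHO3 where labelled low and 7.46 where labelled sufficient. HHO3 fell in shoots by 2.58 ± 0.31, a 5.99-fold difference (confidence interval of the log2 response -3.22 to -1.95, adjusted p = 3.22e-07, limma), and by 2.81 ± 0.28 (1.18e-08), a 7.01-fold difference, without the 4 arrays. The HHO3 response ranked 99th among all falls in shoots as labelled and 106th without the 4 arrays.

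For HHO3 the shoots of El-0 gave 3.56, 4.41 and 5.20 at low and 6.71, 9.05 and 8.28 at sufficient nitrate. SG063 shoots gave 6.69, 7.06 and 6.13 at low and 8.37, 8.50 and 8.37 at sufficient nitrate. KB006 shoots gave 5.69, 6.14 and 4.71 and 8.51, 8.88 and 8.32. El-0 was lowest and SG063 highest at low nitrate, while at sufficient nitrate their ranges overlapped. NG064 shoots gave HHO3 values of 4.75, 7.01 and 4.45 at low and 7.70, 8.40 and 7.76 at sufficient nitrate. In NG087 shoots HHO3 stood at 6.08, 6.67 and 4.196 and 8.04, 8.26 and 7.50. Fei-0 replicates 1 and 2 read 4.58 and 6.07 for HHO3 at low and 9.09 and 8.65 at sufficient nitrate. NG064 and NG087 each had 1 low nitrate array well away from the other two. In the 5 lines other than Fei-0 all low values lay below all sufficient values, as for 5.83% of probe sets. HHO3 responses within shoots ranged from -1.79 ± 0.75 in SG063 (adjusted p = 0.12) to -3.62 ± 0.75 in El-0 (0.00317), and El-0, KB006 (0.0108) and NG064 (0.0283) were called as labelled. El-0, Fei-0, KB006, NG064 and NG087 were called without the 4 arrays (adjusted p from 0.000262 to 0.0147), and SG063 was at 0.0514. As labelled, leaving out KB006 low replicate 3 ended the KB006 call (adjusted p = 0.0649). The NG064 call ended without NG064 low replicate 1 (0.119) or 3 (0.134), or sufficient replicate 1 (0.0527), 2 (0.0932) or 3 (0.0591), while NG087, not called as labelled (0.0529), was called without any one of 7 arrays, 4 of them Fei-0 (lowest 0.0265) and with the replicate number as a block (0.0389).

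In roots HHO3 ranged from 5.98 to 8.20 (median 7.08) at low and from 7.11 to 9.37 (median 8.15) at sufficient nitrate, so the pooled ranges overlapped. Fei-0 replicate 3 read 7.25 where labelled low and 4.51 where labelled sufficient. HHO3 fell in roots by 1.01 ± 0.21 (adjusted p = 0.000363, limma), and by 1.21 ± 0.11 (5.51e-09), a 2.32-fold difference, without the 4 arrays. Within lines low and sufficient values did not overlap in the 5 lines other than Fei-0, as for 4.6% of probe sets. As labelled 0 of 6 lines were called, the nearest being NG064 at -1.49 ± 0.51 (adjusted p = 0.0512). For HHO3 in NG064 roots the call was made with the replicate number as a block (0.0477), with an intensity trend (0.0495), with the filter at a mean of 5 (0.0359), and without Fei-0 low replicate 1 (0.0471), NG064 low replicate 1 (0.0466) or Fei-0 sufficient replicate 1 (0.0243), 2 (0.039) or 3 (0.000249). Without Fei-0 sufficient replicate 1, NG087 roots were called for HHO3 as well (0.0482). Without Fei-0 sufficient replicate 3 alone, El-0 (0.00543), KB006 (0.0034), NG087 (0.000765) and SG063 (0.0017) roots were also called for HHO3. With the 4 arrays of Fei-0 replicate 3 left out 5 of 6 were called, from -1.09 ± 0.27 in KB006 (0.00343) to -1.49 ± 0.27 in NG064 (0.000236), and Fei-0 gave -0.93 ± 0.33 (0.0812).

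HHO3 also differed between lines in roots, at both supplies. The highest values were those of SG063, at 8.09, 8.20 and 7.91 at low and 9.37, 9.27 and 9.26 at sufficient nitrate. Next came KB006, at 7.65, 7.78 and 8.02 and 9.02, 8.73 and 8.99. El-0 was lowest, at 6.18, 6.22 and 5.98 and 7.11, 7.59 and 7.11. SG063 at low nitrate thus lay above El-0 at sufficient nitrate without overlap. Between them stood NG064, at 7.42, 6.75 and 6.29 at low and 8.07, 8.58 and 8.27 at sufficient nitrate. NG087 roots gave 7.08, 6.51 and 6.18 and 8.15, 7.78 and 8.00 for HHO3. Fei-0 replicates 1 and 2 read 6.24 and 7.47 at low and 7.99 and 7.57 at sufficient nitrate. In the order of the 12 root groups by mean HHO3 level as labelled, 8 of 11 neighbouring groups overlapped in range, and the 3 gaps without overlap lay below SG063 sufficient, below KB006 sufficient and below KB006 low.

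The differences of HHO3 between lines in roots were called at sufficient nitrate (limma F test, adjusted p = 0.00174, and 2e-05 without the 4 arrays) against a background of 37.7% of probe sets (47.5% without the 4 arrays). They were also called at low nitrate (0.0319, and 2.16e-05 without the 4 arrays), where the background was 25.4% (37.3%). At low nitrate the call as labelled did not hold in the fit of all 72 arrays (0.144) or without 1 of 8 arrays: El-0 low replicate 1 (0.0613), 2 (0.0574) or 3 (0.0705), KB006 low replicate 2 (0.0539) or 3 (0.0635), and SG063 low replicate 1 (0.0682), 2 (0.0747) or 3 (0.0554). Against the mean of the other 5 lines, SG063 was higher by 1.25 ± 0.21 at sufficient nitrate (adjusted p = 0.000151) and by 1.22 ± 0.21 at low nitrate (0.000242) without the 4 arrays, where 10.8% and 6.81% of probe sets were higher in SG063. KB006 was higher by 0.79 ± 0.21 (0.0104) at sufficient and by 0.93 ± 0.21 (0.00254) at low nitrate, with backgrounds of 9.27% and 11.8%. El-0 differed by -1.19 ± 0.21 (0.000288) at sufficient and by -1.11 ± 0.21 (0.000693) at low nitrate, with 8.53% and 6.62% of probe sets lower. As labelled SG063 at sufficient nitrate was called, at 1.47 ± 0.40 (adjusted p = 0.0158, background 6.7%), but not without SG063 sufficient replicate 1 (0.0817), 2 (0.0656) or 3 (0.0616). Fei-0 at sufficient nitrate was called as lower, at -1.66 ± 0.40 (0.00421, background 13.3%), but not without its replicate 3 (-0.57 ± 0.25, 0.145). Neither KB006 nor El-0 was called as labelled (adjusted p from 0.0869 to 0.153). A probe set reads 1 sequence in all lines, and whether a sequence difference under the probes plays a part in differences between lines was not tested.

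**Figure D2:**
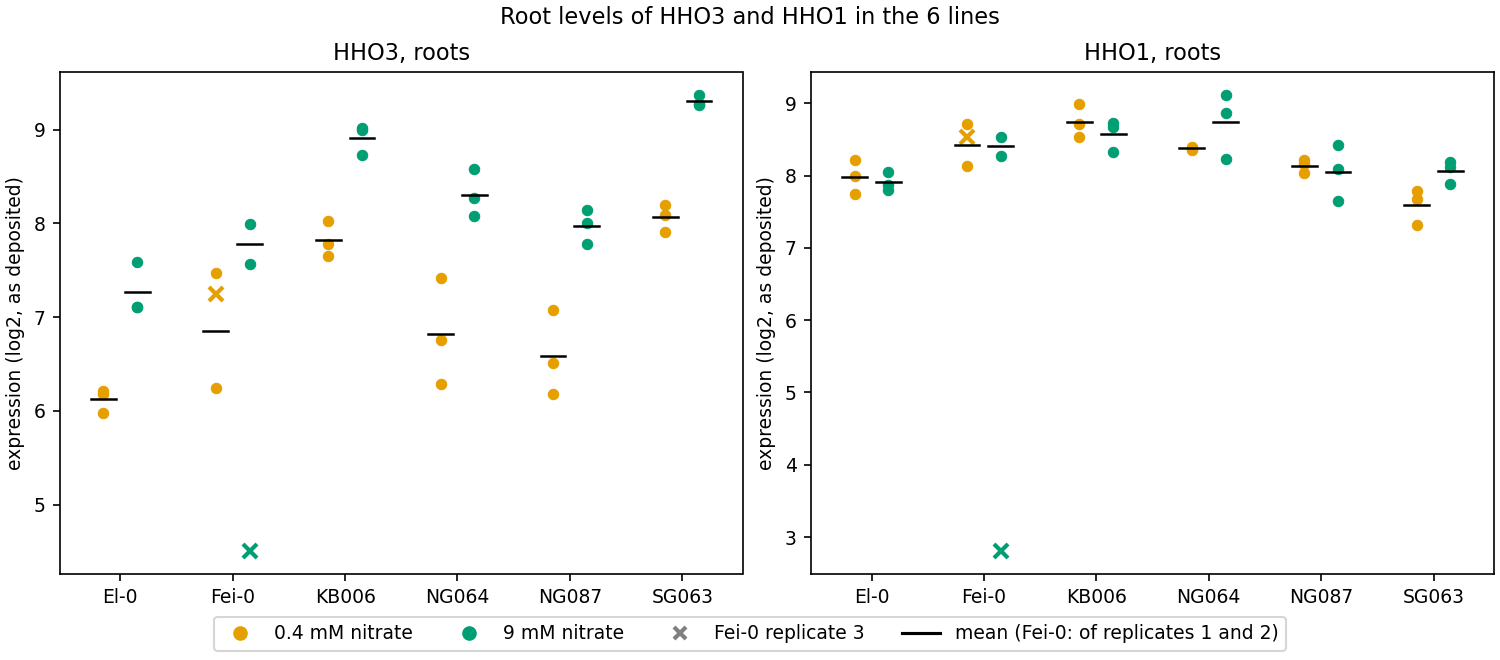
Root expression (vertical axis, log2 scale as deposited; the axes of the 2 panels differ) of HHO3 and HHO1 in the 6 lines at 0.4 mM (orange) and 9 mM nitrate (green); points are arrays, crosses Fei-0 replicate 3 and lines the mean of 3 arrays (2 in Fei-0). HHO3 is highest in SG063 and KB006 and lowest in El-0 at both supplies, with the low supply below the sufficient one in every line but Fei-0 as labelled; HHO1 stays between 7.32 and 9.12 apart from the cross at 2.81.

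HHO1 had far lower levels in shoots than in roots. In roots it ranged from 7.32 to 8.99 (median 8.22) at low and from 7.64 to 9.12 (median 8.23) at sufficient nitrate. Shoots gave 2.39 to 4.09 (median 2.81) at low and 2.25 to 2.91 (median 2.57) at sufficient nitrate, near the lowest value of the table, and the 34 shoot values held 17 distinct numbers, the commonest of them, 2.57, on 8 arrays. No shoot value overlapped a root value, which held for 6.12% of probe sets in that direction. The Fei-0 replicate 3 arrays read 8.65 where labelled shoot, sufficient nitrate and 2.81 where labelled root, sufficient nitrate, each within the range of the other organ. Those labelled low nitrate read 2.91 in shoots and 8.53 in roots. HHO1 was lower in shoots than in roots on the log2 scale at low nitrate (-5.40 ± 0.34, adjusted p = 1.53e-19, limma) and at sufficient nitrate (-5.07 ± 0.34, 1.19e-18), where 36.9% and 37.3% of all probe sets were lower in shoots. The same differences without the 4 arrays were -5.39 ± 0.09 (3.12e-41) and -5.72 ± 0.09 (2.62e-42), with 36.8% and 38.8% of probe sets lower. With shoot signals so near the lowest value of the table, the size of these differences is set by that value, which their SE does not cover, and no fold is given.

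The response of HHO1 to nitrate was small in both organs. In roots it was 0.24 ± 0.32 as labelled (adjusted p = 0.653, limma) and -0.08 ± 0.09 without the 4 arrays (0.543, confidence interval -0.27 to 0.10). El-0 roots read 7.75, 7.99 and 8.22 at low and 8.05, 7.80 and 7.88 at sufficient nitrate for HHO1. NG087 roots read 8.03, 8.22 and 8.16 and 8.43, 7.64 and 8.09. In both lines the supplies overlapped. In KB006 roots HHO1 stood at 8.53, 8.99 and 8.71 at low and 8.32, 8.68 and 8.73 at sufficient nitrate, and in NG064 roots at 8.36, 8.40 and 8.38 and 8.87, 8.23 and 9.12. Fei-0 replicates 1 and 2 read 8.13 and 8.71 at low and 8.53 and 8.28 at sufficient nitrate. Low values lay below all sufficient values in 1 line, SG063, with 7.79, 7.32 and 7.68 against 8.12, 8.19 and 7.89, and that line was not called (-0.47 ± 0.21, 0.118, without the 4 arrays). The share of probe sets with such a separation in that line was not computed. In shoots the response was -0.10 ± 0.35 as labelled (0.9) and 0.25 ± 0.10 without the 4 arrays (0.0392), a change of sign and of call between values that lie close to the lowest value of the table. Leaving out in addition the highest shoot array, KB006 low replicate 3 at 4.09, a step chosen after seeing the data, gave 0.17 ± 0.06 (0.0184). In roots lines were not called as different in HHO1 as labelled (limma F test, adjusted p = 1 at low and 0.203 at sufficient nitrate). Without the 4 arrays they were (0.00233 and 0.0099), where 37.3% and 47.5% of probe sets differed. SG063 was then lower by 0.73 at low nitrate (SE 0.16, adjusted p = 0.00327, 5.99% of probe sets lower) and KB006 higher by 0.64 ± 0.16 (0.00632) with 11.8% of probe sets higher in KB006. The 3 KB006 values at low nitrate lay above the 3 SG063 values without overlap. NG064 was higher in HHO1 by 0.53 ± 0.16 at sufficient nitrate (0.0196), where 11% of probe sets were higher in that line. As labelled Fei-0 was called at sufficient nitrate, as higher in shoots (1.94 ± 0.67, 0.0338, 16.1% of probe sets higher) and lower in roots (-1.73 ± 0.60, 0.0363, 13.3% lower), and neither call held without the 4 arrays (0.896 and 0.876).

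NRG2, the positive regulator, was the only one of the 4 with higher levels in shoots. In shoots NRG2 ranged from 9.68 to 10.39 (median 9.97) at low and from 9.65 to 11.38 (median 10.71) at sufficient nitrate. Roots gave 8.14 to 8.84 (median 8.65) at low and 8.24 to 9.04 (median 8.71) at sufficient nitrate. Every shoot value lay above every root value, as for 6.85% of probe sets, except in the Fei-0 replicate 3 arrays, which read 8.52 where labelled shoot and 10.08 where labelled root at sufficient nitrate. Those labelled low nitrate read 10.48 in shoots and 8.45 in roots. NRG2 was higher in shoots by 1.49 ± 0.12 at low nitrate (adjusted p = 6.02e-16, limma) and by 1.87 ± 0.12 at sufficient nitrate (2.96e-19), where 25% and 27.6% of probe sets were higher in shoots. The differences were 1.48 ± 0.07 and 2.06 ± 0.07 without the 4 arrays (25.7% and 28.4% of probe sets).

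NRG2 fell at low nitrate in shoots, by less than HHO2 or HHO3. The mean response in shoots was -0.55 ± 0.13 (1.46-fold, adjusted p = 0.00161, limma), and -0.67 ± 0.09 (1.59-fold, 1.18e-06) without the 4 arrays. In SG063 shoots NRG2 read 9.94, 9.86 and 10.09 at low and 11.15, 11.07 and 10.85 at sufficient nitrate. KB006 shoots gave 10.34, 10.39 and 10.18 and 11.38, 11.08 and 11.04. These were the lines with the highest NRG2 levels at sufficient nitrate. NG064 shoots gave NRG2 values of 9.91, 9.93 and 9.96 and 10.65, 10.58 and 10.48. In NG087 shoots NRG2 stood at 10.11, 9.97 and 10.02 and 10.75, 10.71 and 10.60. El-0 shoots gave 9.68, 10.13 and 9.93 and 9.65, 11.12 and 10.62. Low and sufficient values did not overlap in SG063, KB006, NG064 and NG087, while in El-0 sufficient replicate 1 lay below all low values. Low values lay below sufficient values in all 5 lines other than Fei-0 for 5.83% of probe sets, and the share for 4 lines was not computed. Fei-0 replicates 1 and 2 read 10.34 and 9.81 at low and 10.26 and 10.45 at sufficient nitrate. As labelled SG063 alone was called (-1.06 ± 0.33, adjusted p = 0.0316), and leaving out any of its 6 shoot arrays ended that call (0.0537 to 0.101). Without Fei-0 shoot sufficient replicate 3 alone, KB006 (0.00745), NG064 (0.0419) and NG087 (0.0387) shoots were also called for NRG2. Once the 4 arrays were left out, SG063 (-1.06 ± 0.22, 0.000792), KB006 (-0.86 ± 0.22, 0.00507), NG087 (-0.65 ± 0.22, 0.0312) and NG064 (-0.64 ± 0.22, 0.0349) were called.

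NRG2 was not called in roots, where its mean response was -0.17 ± 0.10 (adjusted p = 0.213, limma) and -0.09 ± 0.05 (0.152, confidence interval -0.19 to 0.01) without the 4 arrays. As labelled it was called without Fei-0 sufficient replicate 1 (-0.23, 0.0433). SG063 roots read 8.69, 8.66 and 8.75 at low and 9.04, 8.81 and 8.80 at sufficient nitrate for NRG2, and KB006 roots read 8.67, 8.55 and 8.68 and 8.74, 8.69 and 8.74. These were the only lines in which the low values lay below the sufficient values in roots, by small steps. Neither line was called for NRG2 in roots, as labelled or without the 4 arrays. The share of probe sets with such a separation in a single line was not computed. In NG064 roots NRG2 stood at 8.38, 8.49 and 8.14 at low and 8.76, 8.24 and 8.42 at sufficient nitrate, with overlap. The lines differed in NRG2 in shoots at sufficient nitrate (F test, adjusted p = 0.024, and 0.041 without the 4 arrays), where 20.6% and 23.8% of probe sets differed, and this call was lost without KB006 sufficient replicate 1 (0.0503). KB006 was the highest line, by 0.55 ± 0.17 without the 4 arrays (0.0439, 4.86% of probe sets higher), and as labelled Fei-0 was called as lower (-1.04 ± 0.25, 0.00519, 11.2% lower), which did not hold without them (-0.43 ± 0.20, 0.191). At low nitrate in shoots none of the 4 genes differed between lines by that test (adjusted p from 0.416 to 1 as labelled and from 0.21 to 0.797 without the 4 arrays, with backgrounds of 9.63% and 17.7%). In roots the lines were not called as different in NRG2 as labelled (0.682 at low and 0.61 at sufficient nitrate). Without the 4 arrays they were (0.0111 and 0.021), where 37.3% and 47.5% of probe sets differed. SG063 was then higher in roots by 0.28 ± 0.09 at sufficient nitrate (0.0252, 10.8% of probe sets higher) and NG064 lower by 0.27 at low nitrate (SE 0.09, 0.0478, 7.23% of probe sets lower).

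**Figure D3:**
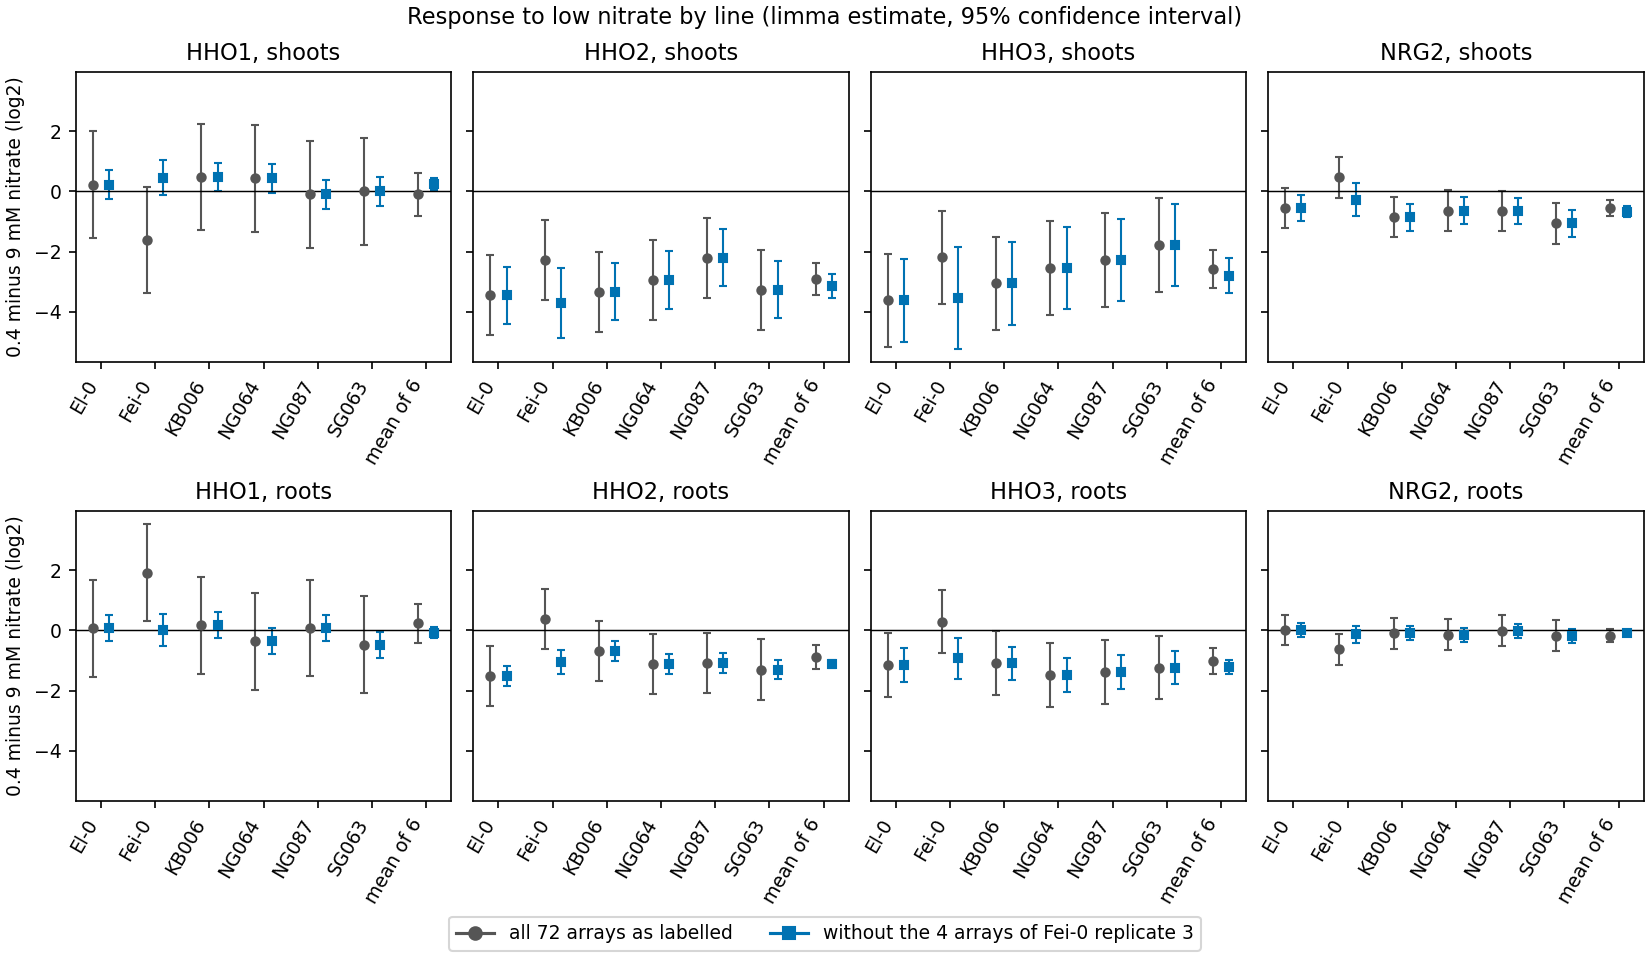
Response to low nitrate (vertical axis, level at 0.4 mM minus level at 9 mM on the log2 scale) of the 4 genes by line and as the mean of 6 lines, in shoots (top) and roots (bottom); points are limma estimates and bars 95% confidence intervals, in grey for all 72 arrays as labelled and in blue without the 4 arrays of Fei-0 replicate 3. HHO2 and HHO3 lie below 0 in every line without those arrays, by more in shoots than in roots, and the grey Fei-0 points of HHO2 and HHO3 for roots lie above 0.

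The responses of HHO2 and HHO3 differed between the organs. For HHO2 the shoot response minus the root response was -2.03 ± 0.33 (adjusted p = 2.94e-06, limma fit of all 72 arrays) and -2.03 ± 0.21 (3.24e-11) without the 4 arrays. For HHO3 the difference was -1.57 ± 0.37 (0.000768) and -1.60 ± 0.31 (2.61e-05). Such a difference was called for 33.9% of probe sets as labelled, 15.4% with the lower response in shoots, and for 43.5% and 19% without the 4 arrays. At sufficient nitrate neither gene was called between organs, the shoot minus root level being 0.10 ± 0.23 (0.769) for HHO2 and 0.14 ± 0.26 (0.698) for HHO3. At low nitrate both were lower in shoots, HHO2 by 1.93 (SE 0.23, 2.96e-10) and HHO3 by 1.44 (SE 0.26, 4.26e-06), and the differences without the 4 arrays were -2.06 ± 0.15 (2.82e-17) and -1.56 ± 0.22 (1.36e-08). For NRG2 the difference of responses was -0.38 ± 0.17 (0.0799) as labelled and -0.58 ± 0.10 (7.53e-06) without the 4 arrays. It was also called as labelled without El-0 shoot sufficient replicate 1 (-0.44, 0.0241), Fei-0 shoot sufficient replicate 3 (-0.48, 0.0044) or Fei-0 root sufficient replicate 3 (-0.47, 0.00853). For HHO1 it was -0.33 ± 0.48 (0.642) and 0.33 ± 0.13 (0.0404), where 24.5% of probe sets had the higher response in shoots.

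The line by nitrate interaction was not called for any of the 4 genes in either organ. Its adjusted p (limma F test) lay between 0.511 for NRG2 and 0.926 for HHO2 in shoots, and between 0.486 for HHO2 and 0.81 for NRG2 in roots. The lowest adjusted p without the 4 arrays was 0.894 in shoots and 0.194 in roots. At an unadjusted p below 0.05 there was 1 of the 8 tests as labelled, NRG2 in shoots (0.0473), and 1 without the 4 arrays, HHO2 in roots (0.0358). The interaction called 0.8% of probe sets in shoots and 2.2% in roots, and 1.11% and 6.24% without the 4 arrays. When the response of each line was set against the mean of the other 5, none was called as labelled, the lowest adjusted p being 0.0602 for NRG2 in Fei-0 shoots (1.22 ± 0.36). After centring each array on its median this NRG2 difference was called (1.35 ± 0.36, 0.0429, against 1.42% of probe sets higher), and without the 4 arrays it was 0.47 ± 0.28 (0.66).

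HHO2 and HHO3 varied together across the samples. Over the 24 group means their levels had a Pearson correlation of 0.852 (0.866 without the 4 arrays), in which the groups share organ and nitrate supply. Within a condition, the deviations of the 17 arrays from their group means correlated at 0.765 in low nitrate shoots, 0.285 in sufficient nitrate shoots, 0.515 in low nitrate roots and 0.626 in sufficient nitrate roots. Deviations of 1 array share its RNA extract and its scaling. With 1 line left out at a time these ranged from 0.717 to 0.822, 0.142 to 0.340, 0.341 to 0.635 and 0.552 to 0.767. HHO3 and NRG2 deviations correlated at 0.820 in sufficient nitrate shoots, but at 0.00836 over the 14 arrays left without El-0, so the correlation rested on that line. Its replicate 1 had the lowest correlation with its own condition of the 68 arrays (r = 0.957). In the other 3 conditions HHO3 and NRG2 correlated between -0.387 and -0.0516. HHO1 and NRG2 had opposite organ patterns, with a correlation of -0.944 over the group means.

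**Figure D4:**
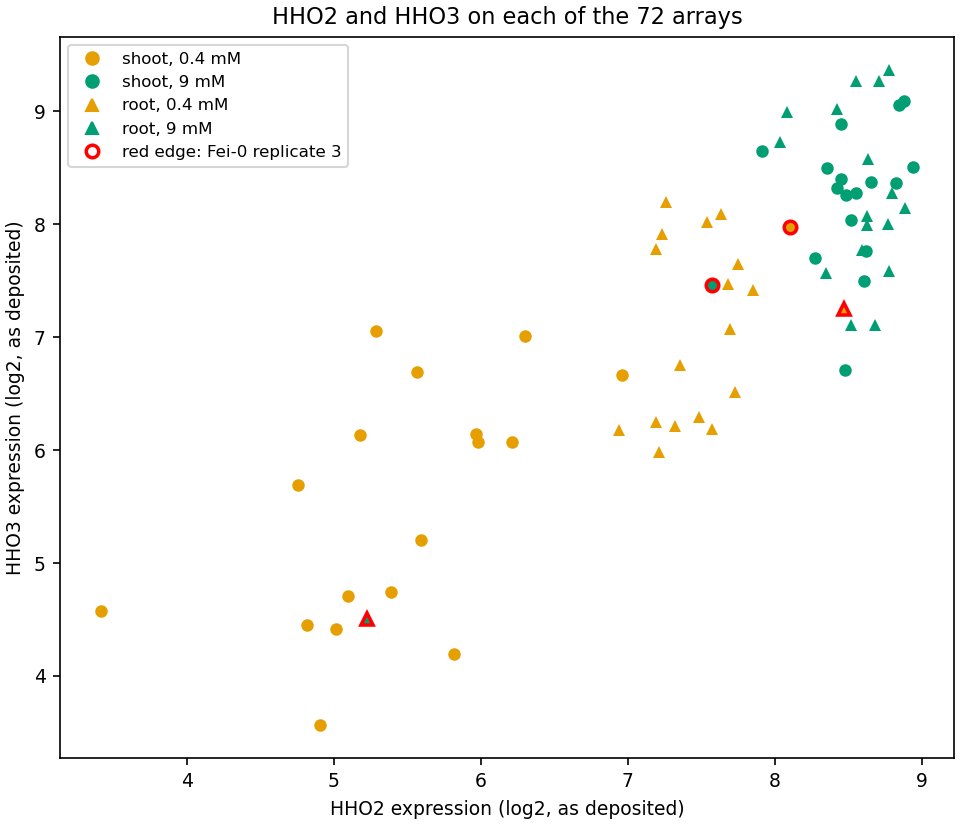
HHO2 (horizontal axis) against HHO3 (vertical axis), both log2 as deposited, on the 72 arrays; circles are shoots, triangles roots, orange 0.4 mM, green 9 mM nitrate, and red edges mark Fei-0 replicate 3. Low nitrate shoots spread over the lower left, low nitrate roots lie in the middle, and sufficient nitrate arrays of both organs lie together at the upper right, apart from red-edged points.

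The genes whose levels followed each of the 4 most closely were taken as the 3 single-gene probe sets with the highest Pearson correlation over the 24 group means. For HHO1 these were AT5G20550 (r = 0.997), AT2G43880 (0.996) and AGL21 (AT4G37940, 0.995). For HHO2 they were AT5G44020 (0.953), AT1G67910 (0.919) and AT1G49500 (0.917), and the response of AT1G49500 was -6.66 in shoots and -4.16 in roots. HHO3 had AT1G11380 (0.894), HHO2 itself (0.852) and AT1G48950 (0.845). NRG2 had AT5G16140 (0.981), AT5G13950 (0.981) and AT3G13690 (0.980). Over the 12 shoot means alone the first 3 kept 1 gene for HHO1, 1 for HHO2 and 0 for HHO3 and NRG2, and without the 4 arrays over all 24 means they kept 2, 3, 1 and 1.

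Of the 7 listed genes of the NIGT1/HHO family 5 were measured, of which HHO5 and HHO6 are not among the 4 genes described above. The median response over all probe sets was -6.69e-05 in shoots and 1.14e-16 in roots. HHO5 (AT4G37180), a further GARP-type member, fell by 1.66 ± 0.20 in shoots (adjusted p = 3.38e-07, limma) and by 1.99 ± 0.19 in roots (4.68e-09). The response of HHO5 was -1.799 in shoots and -2.19 in roots without the 4 arrays. HHO6 (AT1G49560) gave 0.32 ± 0.13 in shoots (0.0543) and 0.23 ± 0.12 in roots (0.148), and rose in shoots without the 4 arrays (0.39 ± 0.13, 0.0127). As with HHO1, neither organ was called for HHO6 as labelled. HHO6 was also lower in shoots than in roots, by 0.69 at low (SE 0.13, 3.38e-06) and by 0.78 at sufficient nitrate (SE 0.13, 3e-07), and HHO5 at sufficient nitrate alone (-0.53 ± 0.19, 0.0143, against 0.425 at low nitrate).

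NRG2 and its DUF630/DUF632 relatives were measured by 13 of 15 listed genes. In shoots 3 rose, 4 fell and 6 were not called, with a median of 0.06, and in roots 3 rose, 2 fell and 8 were not called, with a median of -0.00021. AT2G27090 rose in shoots by 0.57 ± 0.09 (adjusted p = 8.68e-06, limma) and AT1G52320 by 0.48 ± 0.10 (0.000283). NRG2, AT2G34670 (-0.53 ± 0.09, 3.49e-05) and AT5G25590 (-0.48 ± 0.16, 0.0164) were among those that fell. In roots AT2G34670 fell by 0.68 ± 0.15 (0.000872) and AT5G25590 by 0.42 ± 0.07 (1.18e-05), while AT1G77500 (0.38 ± 0.13, 0.0274) and AT1G21740 (0.37 ± 0.09, 0.00246) rose. Of all probe sets 23.7% rose and 17.3% fell in shoots and 21.2% and 15.5% in roots, so the counts in roots and of rises in shoots lay near those shares. Without the 4 arrays AT2G27090 gave 0.63, AT1G52320 0.59, AT2G34670 -0.56 and AT5G25590 -0.55 in shoots. The values of AT2G34670, AT5G25590, AT1G77500 and AT1G21740 in roots were then -0.80, -0.44, 0.32 and 0.33. Centring each array on its median made the shoot counts 2 up and 6 down and the root counts 4 up and 2 down. With centring 3796 of all 22746 probe sets rose and 12282 fell in shoots, and 10245 rose and 3401 fell in roots. The centred shoot falls included AT4G39790 and AT5G54480, and the root rises AT5G54480, all at levels near the lowest value of the table. Leaving out the 4 arrays made the counts 4 up and 4 down in shoots, and 3 and 3 in roots. Of all probe sets 28% then rose and 21.9% fell in shoots, and 23.6% and 19.1% in roots.

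Of 5 listed uptake genes that the family represses, 1 was measured, NRT2.5 (AT1G12940), whose product takes up nitrate with high affinity. NRT2.5 rose in shoots by 5.41 ± 0.37 (adjusted p = 1.34e-10, limma), and by 5.73 without the 4 arrays. In roots NRT2.5 gave 0.89 ± 0.40 (0.0861), and 1.37 ± 0.20 (3.21e-06) without the 4 arrays. By line without them, the root rise of NRT2.5 was called in El-0 (2.18 ± 0.46, 0.00177), Fei-0 (2.85 ± 0.56, 0.00164) and SG063 (0.0137). It was not called in NG064 (1.14 ± 0.46, 0.0784), NG087 (0.28 ± 0.46, 0.915) or KB006 (0.15 ± 0.46). The NRT2.5 means at sufficient nitrate, 2.75 in shoots and 2.30 in roots without the 4 arrays, were near the lowest value of the table. That value limits the size of the NRT2.5 responses, and their SE does not cover this. Among other nitrate transporters 1 of 11 listed genes was measured, and it, NRT1.4 (AT2G26690), fell by 0.85 ± 0.28 in shoots (0.0161) and by 2.71 ± 0.23 in roots (1.1e-09), the responses of NRT1.4 without the 4 arrays being -1.17 and -2.85. Of 6 listed CEP receptors and CEPD-type glutaredoxins 3 were measured, all of them glutaredoxins. The CEPD-type glutaredoxins carry the nitrogen demand signal from shoots to roots. All 3 rose in shoots, where 23.7% of all probe sets rose. GRXC14 (AT3G62960) rose by 5.77 ± 0.37 (4.56e-11), GRXC13 (AT2G47880) by 2.56 ± 0.37 (3.98e-06) and GRXS11 (AT1G06830) by 0.90 ± 0.25 (0.0045). In shoots without the 4 arrays GRXC14 gave 5.86, GRXC13 2.34 and GRXS11 0.68, and 28% of all probe sets rose. In roots GRXS11 rose by 1.04 ± 0.34 (0.0171, 21.2% of all probe sets rose) and the others were not called. Without the 4 arrays GRXC13 rose as well (0.20 ± 0.08, 0.0446, 23.6% of all probe sets rose). Within lines this root response was called in El-0 alone (0.97 ± 0.19, 0.000885), and the other lines lay between -0.13 and 0.19. The root means of GRXC13, 2.60 at low and 2.38 at sufficient nitrate, were near the lowest value of the table. The listed genes for nitrate sensing (25), nitrate-induced regulators (7), nitrate assimilation (12), phosphate starvation (11) and corepressors (5) were not analysed here.

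**Figure D5:**
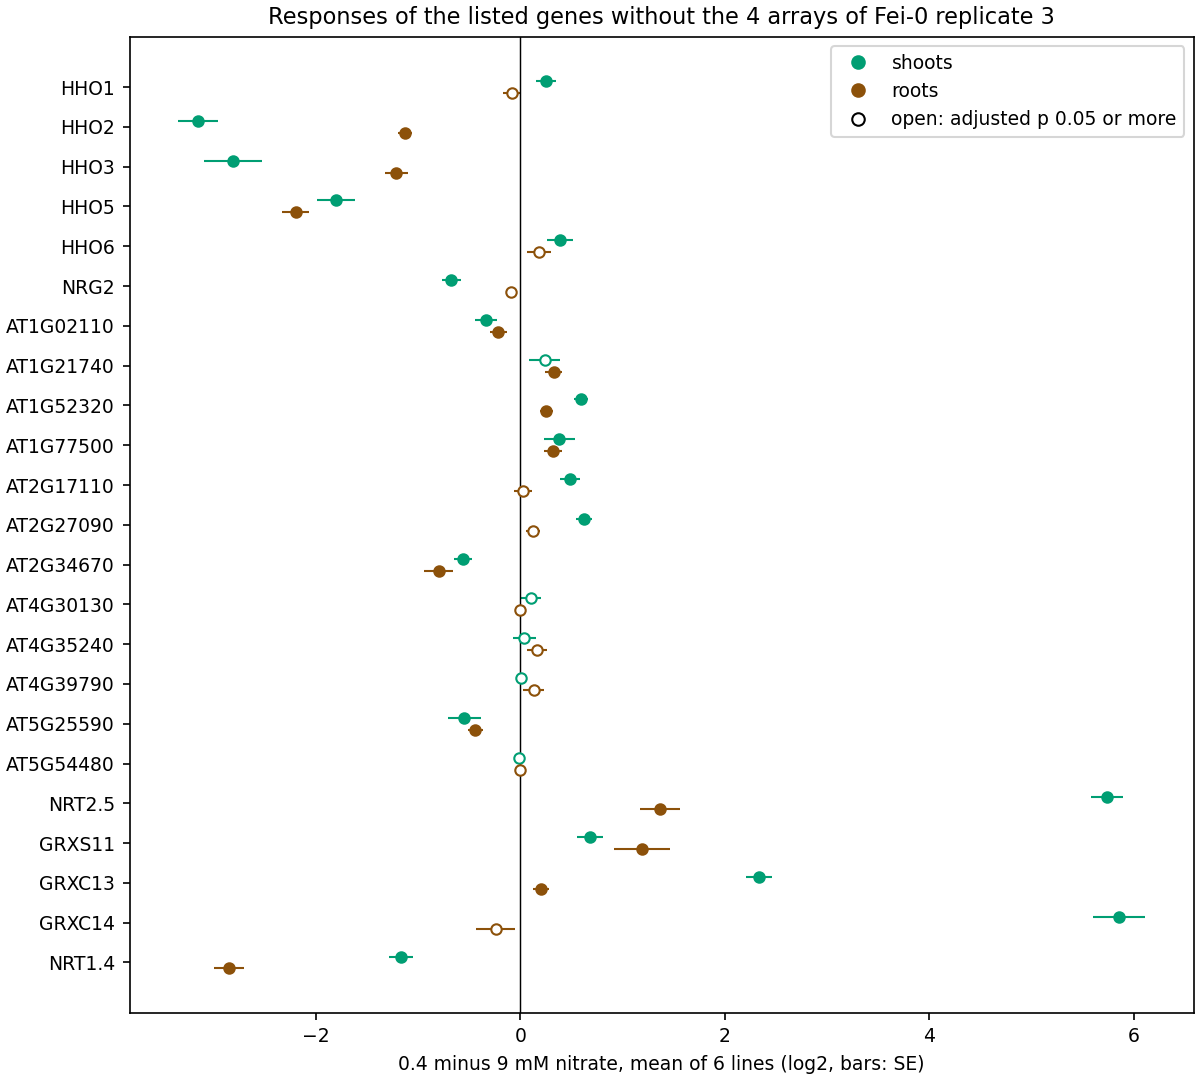
Response to low nitrate (horizontal axis, 0.4 minus 9 mM as the mean of 6 lines, log2) of the listed genes with a probe set of their own, in shoots (green) and roots (brown), without the 4 arrays of Fei-0 replicate 3; bars are SE and open points are genes not called. HHO2, HHO3 and HHO5 lie to the left in both organs, the DUF630/DUF632 genes between -0.80 and 0.63, and NRT2.5 and GRXC14 farthest to the right in shoots.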

How the data were processed

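RNA of shoots and roots was hybridised to 72 Affymetrix ATH1 arrays, and the authors deposited 1 table of log2 values for 22746 probe sets. Per the submitters' processing notes the tools were affy, GCRMA and limma, with no version given and with no further steps in the sources used here. GCRMA models background from probe sequence, so dim probe sets crowd at the lowest value (25.1 to 27.8% of an array's probe sets lay within 0.1 of it) and small differences among them carry little information. Arrays give no read depth, so precision depends on how many arrays a group holds. Groups were taken from the labels. No array's values were identical to another's, the highest correlation between 2 arrays being 0.996.

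A model of group means was fitted to the deposited values for the 36 arrays of each organ in limma 3.58.1 under R 4.3.3, and to all 72 arrays for differences between organs. Adjusted p-values are Benjamini-Hochberg values over 22746 probe sets in each comparison. The script was tested on simulated data. Probe sets were named from the platform annotation, which gives 1 gene for 13513, several for 503 and none for 8730. The names HHO1, HHO2, HHO3 and NRG2 were attached through their locus numbers. A probe set that also detects a near-identical gene would not be told apart here. The 4 genes and the lists beside them were chosen with earlier results of these data known. Named genes are the 4, up to 4 called genes per list and organ by size, and the 3 most similar probe sets of each. HHO6 was named after its values were seen. Alternatives were median centring, quantile normalization, 1 fit of 72 arrays, an intensity trend, a replicate block, a filter at a mean of 5, and leaving out arrays.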

Additional observations from a re-analysis of the deposited data

Results flagged for a closer look

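The shoot and root responses of HHO2 differed by the contrast of both organs in the fit of 72 arrays. The shoot response minus the root response of HHO2 was -2.03 ± 0.33 (adjusted p = 2.94e-06, limma), from a fall of 2.92 in shoots and of 0.89 in roots. HHO3 differed in the same way, by -1.57 ± 0.37 (0.000768), from a fall of 2.58 in shoots and of 1.01 in roots. Both contrasts were also called without the 4 arrays of Fei-0 replicate 3 (-2.03 ± 0.21 and -1.60 ± 0.31). Such a difference was called for 33.9% of all probe sets.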

How the results depend on the processing

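All values are log2 responses (low minus sufficient nitrate) or adjusted p of limma tests. The shoot and root falls of HHO2 and HHO3, the shoot fall of NRG2, the organ differences in level of HHO1 and NRG2 and the differences of response between organs of HHO2 and HHO3 kept their direction and call under every alternative run, in which 1 choice was changed at a time. The 4 arrays of Fei-0 replicate 3 moved most of what did change. Without them the mean response of HHO1 was 0.25 in shoots and -0.082 in roots, the Fei-0 responses were 0.45 for HHO1 and -0.28 for NRG2 in shoots and -1.05 for HHO2 and -0.93 for HHO3 in roots, the shoot minus root level of HHO2 at sufficient nitrate was -0.04, and the shoot minus root response was 0.33 for HHO1 and -0.58 for NRG2. The tests of differences between lines in roots then gave 0.00233 (low) and 0.0099 (sufficient) for HHO1, 0.0111 and 0.021 for NRG2, and 0.0392 for HHO2 at sufficient nitrate. Leaving out KB006 shoot low replicate 3 as well, an alternative chosen after seeing the data, gave 0.17 for HHO1 in shoots. Centring each array on its median, where shoot medians were 0.17 higher and root medians 0.03 lower at low than at sufficient nitrate, gave -0.58 for the NRG2 shoot minus root response. With centring 5 of 6 lines were called in shoots for HHO3 (3 as labelled) and 3 of 6 for NRG2 (1 as labelled). It called 16078 probe sets in shoots (3796 higher and 12282 lower, against 5381 and 3938) and 13646 in roots (10245 and 3401, against 4815 and 3516). Quantile normalization gave 0.068 for HHO1 in SG063 shoots. The fit of 72 arrays made 2 results weaker and 3 stronger, and among the weaker was HHO3 between lines in low nitrate roots (0.144). The replicate block changed 2 calls of the 4 genes, those of HHO3 in NG087 shoots (0.0389) and NG064 roots (0.0477), and gave 2.2e-08 for HHO2, 2.16e-07 for HHO3 and 0.00206 for NRG2 in shoots, 0.00108 for HHO2 and 0.000348 for HHO3 in roots, and 9316 and 8293 probe sets called in shoots and roots. The replicate numbers were not taken as pairing, since not every pair correlated over 0.1. Same-numbered low and sufficient arrays of the lines other than Fei-0 deviated together (r over 0.1) in 11 of 15 shoot and 3 of 15 root pairs, and 11 of 15 shoot and 6 of 15 root low nitrate arrays correlated best with their own number, a hint from the data of shared replicate effects in shoots.

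With 1 array left out at a time, mean responses ranged from -0.28 to 0.25 (HHO1, shoots), -0.075 to 0.40 (HHO1, roots) and -0.23 to -0.080 (NRG2, roots). The shoot minus root response ranged from -0.51 to 0.01 for HHO1 and from -0.48 to -0.32 for NRG2, and the shoot minus root level at sufficient nitrate from -0.083 to 0.20 for HHO2 and from -0.044 to 0.25 for HHO3. Tests between lines in roots ranged from 0.00135 to 1 (HHO1, low), 0.00825 to 0.292 (HHO1, sufficient), 0.0128 to 0.203 (HHO2, sufficient), 1.7e-05 to 0.0747 (HHO3, low), 0.0101 to 0.91 (NRG2, low) and 0.0205 to 0.916 (NRG2, sufficient). In shoots they ranged from 0.0388 to 1 (HHO2, low), 0.0405 to 0.97 (HHO1, sufficient) and 0.0059 to 0.0503 (NRG2, sufficient). In these tests of mean responses, of organs and between lines, the array whose omission made a call or a change of sign was in most cases Fei-0 sufficient replicate 3 of either organ. The others were Fei-0 shoot low replicate 1 (HHO2), Fei-0 shoot sufficient replicate 1 (HHO1), Fei-0 root sufficient replicates 1 (HHO1, HHO2, NRG2) and 2 (HHO1, HHO2), El-0 shoot sufficient replicate 1 and KB006 shoot sufficient replicate 1 (NRG2), and the 8 root low arrays already named for HHO3. Responses within lines that changed sign ranged in shoots from -2.70 to 0.45 (HHO1, Fei-0), -0.23 to 0.060 (HHO1, NG087), -0.079 to 0.077 (HHO1, SG063) and -0.14 to 0.82 (NRG2, Fei-0). In roots they ranged from -0.040 to 0.19 (HHO1, El-0), -0.12 to 0.27 (HHO1, NG087), -0.71 to 0.99 (HHO2, Fei-0), -0.80 to 0.95 (HHO3, Fei-0), -0.033 to 0.064 (NRG2, El-0), -0.26 to 0.0042 (NRG2, NG064) and -0.11 to 0.071 (NRG2, NG087). The signs changed without Fei-0 sufficient replicate 3 in the Fei-0 results, and otherwise without 1 array of the line itself. Fei-0 roots were called for HHO1 without Fei-0 sufficient replicate 1 (0.00961) or 2 (0.0128) and for NRG2 without 1 (0.00647) or 2 (0.0229), and Fei-0 shoots for HHO2 (0.000636) and HHO3 (0.0267) without Fei-0 low replicate 3. The cause of these changes was not tested. The shoot level of HHO1 lies close to the lowest value of the table, and under the filter at a mean of 5 some probe sets were not tested.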
